A study of Mus musculus with 8 samples.

Results

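The nuclear genes of oxidative phosphorylation were examined in AML12 cells, a mouse hepatocyte line, cultured for 24 h with or without irisin. Members were the array probes whose RefSeq symbol starts with Nduf (complex I), Uqcr (complex III), Cox4 to Cox8 (complex IV) or Atp5 (complex V), or is Sdha, Sdhb, Sdhc or Sdhd (complex II), with pseudogenes left out. The rule gave 125 probes of 93 genes, out of 39429 probes and 21612 named genes on the array. Complex I held 46 of these genes, complex II 4, complex III 8, complex IV 18 and complex V 17. The rule goes by name, so 83 of the genes encode subunits and 10 encode assembly factors or related proteins.

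The 8 samples were 4 labeled control and 4 labeled irisin, and the labels of the latter give 0.5 µg/ml irisin. Irisin is the peptide cleaved from Fndc5. Both groups were grown in the same medium with fetal bovine serum, and both come from 1 cell line, which was derived from mice carrying a human TGF-α transgene. The labels do not say whether replicates were separate cultures, so the p-values measure the spread between these 8 arrays, which may be technical. The 9 hepatocyte markers found on the array, among them Alb, Ttr, Apoa1 and Hnf4a, stood well above background on each of the 8 arrays. The summed signal of these 9 markers, in multiples of the 75th percentile, ran from 473 to 525 in control and from 384 to 460 with irisin, and 2 of them were lower at the adjusted p alone. Of the 4 stellate cell and fibroblast markers, 3 were above background on no array. The 3 endothelial markers summed to 0.696 to 0.779 in control and 0.407 to 0.575 with irisin, with Pecam1 called lower and Cdh5 above background on no array. Kdr was above background on all arrays and lower at the adjusted p alone (-0.56 on the log2 scale, limma adjusted p = 0.0044). The 5 leukocyte markers summed to 1.69 to 2.31 and 1.40 to 1.70, with Lyz2 above background on no array. Ptprc and Adgre1 were above background on some arrays, and Cd68 and Itgam on all. Itgam was lower at the adjusted p alone (-0.43 on the log2 scale, limma adjusted p = 0.0395), and Cd68 was at 0.006. The 4 bile duct markers summed to 42.5 to 50.3 and 41.1 to 48.0. The part of these markers in the values below was not tested. All control arrays lay on 1 slide and all irisin arrays on another, each slide scanned on its own, so the effect of treatment cannot be told apart from that of slide or scan. Irisin arrays were also brighter at the 75th percentile of signal, which was 783 ± 71.6 (SD, n = 4) where control arrays had 472 ± 70.1 (SD, n = 4). On the log2 scale this is 0.74 higher, and the two-sided exact permutation p was 0.0286, which no design of 4 against 4 arrays can go below. The mean log2 signal of the spike-in controls overlapped, from 11.38 to 11.81 on control arrays and from 11.33 to 12.05 on irisin arrays.

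Oxidative phosphorylation takes place in the inner mitochondrial membrane. Complexes I and II pass electrons from NADH and succinate to coenzyme Q, complex III passes them on to cytochrome c, and complex IV passes them to oxygen. Complexes I, III and IV pump protons, and complex V, the ATP synthase, uses the gradient to make ATP. Hepatocytes are rich in mitochondria. Apart from complex II, each complex combines nuclear-encoded subunits with subunits encoded by mitochondrial DNA. The nuclear ones fall into catalytic core subunits, which carry the redox centers or the catalytic sites, and accessory subunits around them. The 13 subunits encoded by mitochondrial DNA were not matched to a probe and were not analysed here.

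Promoters of such genes are known for sites of the nuclear respiratory factors NRF1 and GABP and of YY1. The RefSeq table of GRCm38.p6 held a window from 250 bases before to 50 bases after the start for 76 of the 93 genes. Short cores of these sites were searched on both strands. The letters GCATGCG, from the NRF1 site, were found in 13 of the 76 genes (17.1%), against 4.01% of all 27025 genes with a window and 4.96% of the 17492 protein-coding ones. The letters GATGGCG, from the YY1 site, were found in 12 of the 76 (15.8%), against 4.95% of protein-coding genes. The letters CCGGAAG, part of the GABP site, were found in 19 of the 76 (25.0%), against 12.95% of protein-coding genes. None of the 3 motifs contains another, and 2 members, Atp5j and Cox6a1, held all 3. The NRF1 letters occurred in every complex, and 1 or more matches of each are shown with up to 10 bases on either side, 5′ to 3′ on the strand of the gene, with the motif in capitals.
Ndufaf4, complex I, chr4:24897962-24897988, plus strand: agatgtctgcGCATGCGcctgtgcgga
Ndufa11, complex I, chr17:56717694-56717720, plus strand: tgcactgcgcGCATGCGcgcacgcctt
Sdhb, complex II, chr4:140961207-140961233, plus strand: agcccagtggGCATGCGccctacgggc
Uqcrc1, complex III, chr9:108936670-108936696, plus strand: tccgctctgcGCATGCGcagcgcggct
Cox6a1, complex IV, chr5:115349102-115349128, minus strand: ggaacggggcGCATGCGcgctctcgct
Atp5g2, complex V, chr15:102671071-102671097, minus strand: ctccggccgcGCATGCGcagagccttc
Atp5l, complex V, chr9:44920966-44920992, minus strand: aaccaataacGCATGCGcatttccccc

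The NRF1 letters lay before the annotated start in 10 of the 13 genes, across it in Uqcr11 and after it in Ndufaf5 and Uqcrc1, and Ndufaf4 held them also just after the start. Of the 12 genes with the YY1 letters, 8 belong to complex I. These letters hold ATG, and whether a match lies on a start codon was not checked. The YY1 letters lay after the annotated start in 8 genes, before it in Atp5j, Ndufa7 and Ndufaf7, and across it in Cox7b2, and 5 of the 12 genes are shown.
Ndufs7, complex I, chr10:80249465-80249491, plus strand: ccgaggccaaGATGGCGgcgctggcgg
Ndufs4, complex I, chr13:114388045-114388067, minus strand: cctacaggaaGATGGCGgcggtc
Ndufa9, complex I, chr6:126849097-126849123, minus strand: tgtgggagaaGATGGCGgccgccgtcc
Cox6a1, complex IV, chr5:115348932-115348958, minus strand: gtagttccatGATGGCGtcggcggtgc
Atp5j, complex V, chr16:84835046-84835072, minus strand: gtgtaggaaaGATGGCGgagtcttagc

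The changes with irisin, described next, ran from -0.36 to 0.19 on the log2 scale in the 13 genes with the NRF1 letters, with a median of -0.13, against -0.21 in the 61 tested genes that had a window without them. In the 11 tested genes with the YY1 letters they ran from -0.36 to 0.0050, with a median of -0.17, against -0.20 in the 63 without. In the 19 genes with the GABP letters they ran from -0.36 to 0.08, with a median of -0.20, against -0.21 in the 55 without. A match of letters is a description and shows no binding.

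The question put to the arrays was which genes irisin regulates. The signal of each probe was put on the log2 scale after dividing by its array's 75th percentile, and irisin was compared with control. A gene was represented by its tested probe with the highest mean signal, and was called changed at a change of at least 1.5-fold (0.58 on the log2 scale) with a limma adjusted p under 0.05 over all tested probes. A probe was tested where every array of the control group or every array of the irisin group read it well above background.

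Of the 93 genes, 89 were tested, and only Cox4i2 and Cox6b2 were called, both lower with irisin. That is 2.25% of the members, where 10.2% of the 14312 tested genes were called lower. None was called higher, against 0.531% of all tested genes. At an unadjusted limma p under 0.05, 39 of the 89 members were below 0 and 0 above it. Of the 14312 tested genes, 3372 and 850 were so. By probe, 2 of 121 tested member probes were called lower and none higher, against 11.7% and 0.714% of all 24093 tested probes. The other members shifted by less than 1.5-fold. On this scale 83 of the 89 changes were below 0, against 9160 of the 14312 tested genes. For the members that count was 48 with quantile normalization and 0 with no scaling. The median change was -0.21 over the members and -0.06 over all tested genes. At the adjusted p alone, with no limit on fold, 22 of 89 members (24.7%) were lower and none was higher, against 17.9% and 2.65% of all tested genes. With 1 array left out, the share of members lower ran from 13.5% to 49.4%. The lowest control array lay above the highest irisin array for 27 members (30.3%), and the reverse held for none, against 19.7% and 4.16% of all tested genes. The 95% interval excluded a 1.5-fold change in either direction for 78 of the 89 members. In these bulk samples, fewer cells of a type and less RNA per cell cannot be told apart.

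**Figure D1:**
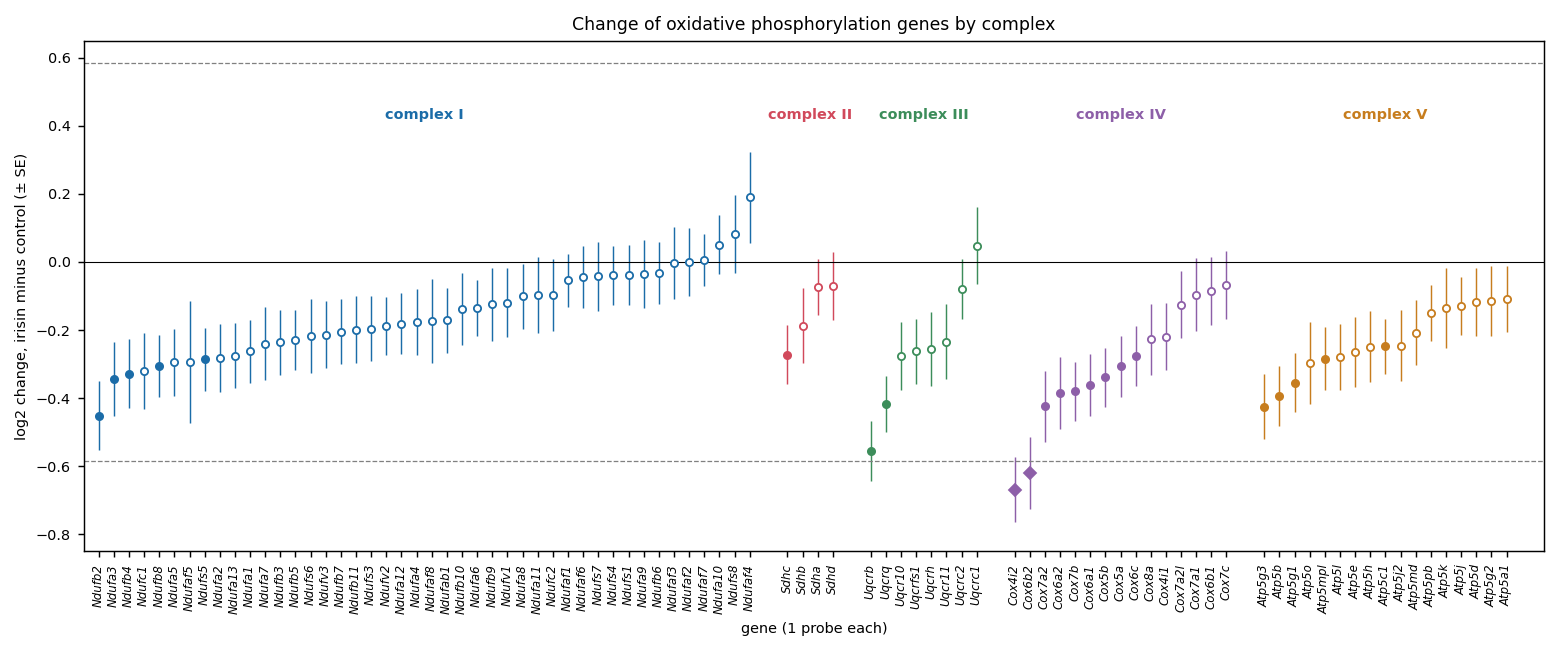
Log2 change with irisin (irisin minus control, ± SE, 4 arrays a group) of 88 of the 89 tested genes, 1 probe each, ordered by change within each complex. Diamonds mark the 2 called genes, filled circles the genes under the adjusted p threshold alone and open circles the rest, and dashed lines mark 1.5-fold. On this scale complexes II, IV and V have no gene above 0, while 5 genes of complex I and 1 of complex III lie above 0.

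The decreases at the adjusted p alone were counted by complex. Against 17.9% of all tested genes, complex IV had 9 of 15 tested genes lower (60.0%), complex V 5 of 17 (29.4%), complex III 2 of 8 and complex II 1 of 4 (25.0% each), and complex I 5 of 45 (11.1%). Of the 9 in complex IV, Cox4i2 and Cox6b2 were in the fourth signal decile of the tested probes and Cox6a2 in the second. In these deciles 21.9% and 51.7% of all tested genes were lower, in that order. The counts by complex depended on the scaling. With quantile normalization 5 members (5.62%) were lower at the adjusted p alone, against 9.87% of all tested genes. These were Cox4i2, Cox6b2 and Cox7a2 of complex IV, Uqcrb of complex III and Ndufb2 of complex I, with none of complexes II and V. The median change was -0.31 in complex IV, -0.26 in complex III, -0.25 in complex V, -0.17 in complex I and -0.13 in complex II. All 5 medians were above 0 with spike-in or no scaling, and that of complex II also with quantile normalization and cyclic loess. Differences between complexes were not tested. Per array, the median signal of the complex IV genes ran from 5.48 to 5.67 in control and from 5.20 to 5.40 with irisin, with no overlap. The complex III medians did not overlap either, from 5.13 to 5.34 in control and from 4.73 to 4.98 with irisin. The medians overlapped in complex I, from 4.57 to 4.72 and from 4.26 to 4.67, in complex II, from 4.66 to 4.80 and from 4.47 to 4.75, and in complex V, from 5.51 to 5.71 and from 5.23 to 5.60.

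The subunits of complex I were described by role. The 7 tested core subunits had a median change of -0.09 and none was lower at the adjusted p alone. The 29 accessory subunits had a median of -0.21, and 5 of them (Ndufb2, Ndufa3, Ndufb4, Ndufb8 and Ndufs5) were lower at the adjusted p alone. These 5 are 17.2% of the accessory subunits, close to the 17.9% of all tested genes. The 8 assembly factors had a median of -0.02, with none under the threshold. The groups differed in signal as well. In the highest signal decile of the tested probes lay 4 of the 7 core, 23 of the 29 accessory and 0 of the 8 assembly genes. The difference between these groups was not tested, nor was the part of signal in it.

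Ndufs1 carries iron-sulfur clusters of the NADH arm and did not pass the test. Its signal, log2 relative to the 75th percentile, was 3.97, 3.86, 3.91 and 3.77 on the control arrays and 3.77, 3.70, 3.93 and 3.96 on the irisin arrays. These ranges overlap, and the difference was -0.04 (95% interval -0.24 to 0.16, limma adjusted p = 0.816). Ndufv1, which binds NADH and FMN, was at -0.12 (95% interval -0.35 to 0.11). Ndufs8, another iron-sulfur subunit, was at 0.08 (95% interval -0.17 to 0.34). For these 3 core genes the interval excluded a 1.5-fold change on the 75th percentile scale, and intervals on other scales are not given. Quantile normalization put the 3 genes at 0.05, 0.13 and 0.10. With no scaling they were at 0.70, 0.62 and 0.82, past 1.5-fold, where all tested probes had a median of 0.66.

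Ndufb2, an accessory subunit of the membrane arm, had the largest decrease in complex I. Its signal was 4.97, 4.75, 4.95 and 5.01 in control and 4.42, 4.67, 4.29 and 4.50 with irisin. All irisin arrays lay below all control arrays. The difference was -0.45 ± 0.10 (SE), with a limma adjusted p of 0.00715, and stayed short of 1.5-fold. Ndufaf4, an assembly factor, had the largest increase, 0.19 ± 0.13 (SE, adjusted p = 0.366). Its control array 2 lay at 1.72 against 2.21 to 2.32 on the other control arrays, and without control replicate 2 the value was 0.06. Its second probe was at 0.04. Ndufa4, named for complex I but known as a complex IV subunit, was at -0.18 (adjusted p = 0.238). Ndufa4l2, its hypoxia-linked relative, was not well above background on any array.

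Complex II, succinate dehydrogenase, also belongs to the TCA cycle and has only nuclear subunits. Sdha, the flavoprotein, measured 4.40, 4.37, 4.38 and 4.34 in control and 4.30, 4.45, 4.16 and 4.29 with irisin. The irisin arrays spread around the tight control values, and the difference was -0.07 (95% interval -0.26 to 0.11, adjusted p = 0.594). Sdhd, a membrane anchor, was at -0.07 and Sdhb, the iron-sulfur subunit, at -0.19, neither under the threshold. Sdhc, the other anchor, was lower at the adjusted p alone by one of its probes (-0.27 ± 0.09 SE, adjusted p = 0.0451), while its second probe was at -0.12 (adjusted p = 0.334).

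In complex III the genes lower at the adjusted p alone were Uqcrb and Uqcrq, both small accessory subunits. Uqcrb measured 5.24, 5.00, 4.98 and 5.07 in control and 4.58, 4.41, 4.49 and 4.58 with irisin. The groups were separated by more than the spread within either, 0.12 and 0.08 (SD, n = 4). The difference was -0.56 ± 0.09 (SE), or 68.0% of the control signal, with a limma adjusted p of 0.000994, short of the 1.5-fold threshold. Quantile normalization put it at -0.40 (adjusted p = 0.0197) and normexp at -0.66 (adjusted p = 0.100), and without scaling it was above 0, at 0.18. On the 75th percentile scale its other probes were at -0.54 (adjusted p = 0.00217) and -0.35 (adjusted p = 0.121), so all 3 lay on the same side.

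Uqcrq was at -0.42 (adjusted p = 0.00367), with a second probe at -0.24 (adjusted p = 0.0899). The core proteins Uqcrc1 and Uqcrc2 were at 0.05 (95% interval -0.20 to 0.30) and -0.08 (95% interval -0.27 to 0.12). Uqcrfs1, the Rieske iron-sulfur protein, was at -0.26 (adjusted p = 0.0737). Cytochrome c1 (Cyc1), the other nuclear-encoded redox subunit of complex III, is outside the naming rule and was at 0.10 (adjusted p = 0.639).

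Complex IV is the complex with tissue isoforms, and its called genes were of that kind. Cox4i2, the isoform of subunit 4 best known from lung and hypoxic cells, measured -2.57, -2.73, -2.59 and -2.51 in control and -3.45, -3.11, -3.30 and -3.21 with irisin. The groups did not overlap, and the difference was -0.67 ± 0.10 (SE, adjusted p = 0.00056), or 62.9% of control. Cox6b2, known from testis, measured -2.89, -3.18, -2.99 and -2.82 in control and -3.75, -3.58, -3.63 and -3.40 with irisin, a difference of -0.62 ± 0.11 (SE, adjusted p = 0.00156) without overlap. Both probes lay among the dim ones, in the fourth signal decile of the tested probes. With normexp background correction both calls were lost, at 0.03 for Cox4i2 (adjusted p = 0.961) and 0.10 for Cox6b2 (adjusted p = 0.857). With quantile normalization they were at -0.58 and -0.50, under the adjusted p threshold but short of 1.5-fold. Without scaling between arrays both were slightly above 0, at 0.07 and 0.12, where all tested probes had a median of 0.66. The call of Cox6b2 was also lost without control replicate 4 or without irisin replicate 1, where it stood at -0.57 in either case, just short of 1.5-fold, with limma adjusted p of 0.00636 and 0.00509.

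The partner isoforms were not called. Cox4i1, the ubiquitous isoform, was at -0.22 (adjusted p = 0.141), and Cox6b1 at -0.09 (95% interval -0.31 to 0.14, adjusted p = 0.618). Cox6a1, the form found in liver, was at -0.36 (adjusted p = 0.0128), and its muscle counterpart Cox6a2 at -0.39 (adjusted p = 0.0213) from a dim probe whose value was 0.46 with normexp and 0.04 with quantile normalization. Cox7a2 was at -0.42 (adjusted p = 0.0122) and Cox7a1, the muscle form, at -0.10 (adjusted p = 0.596). Cox8a was at -0.23 (adjusted p = 0.154), and no array read Cox8b, Cox8c or Cox7b2 well above background. The levels of isoforms were not compared with each other, since probes differ in how they bind.

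Cox5a and Cox5b, which have no isoform pair here, were lower at the adjusted p alone, at -0.31 (adjusted p = 0.0292) and -0.34 (adjusted p = 0.0148), and so were Cox6c and Cox7b. Cox7c, a small subunit, gave unlike values from its probes. One probe measured 4.36, 4.25, 4.35 and 4.50 in control and 3.63, 3.94, 3.77 and 3.78 with irisin, a difference of -0.58 (adjusted p = 0.000984) just inside the 1.5-fold threshold. Another, of nearly equal mean signal, measured 4.17, 4.00, 4.13 and 4.14 in control and 3.80, 4.21, 4.02 and 4.14 with irisin, a difference of -0.07 (adjusted p = 0.701). Another probe, a dim one, was at -0.40 (adjusted p = 0.0367). The probe at -0.07 stood for the gene by the rule, and with the probe at -0.58 in its place the complex IV median was -0.34.

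**Figure D2:**
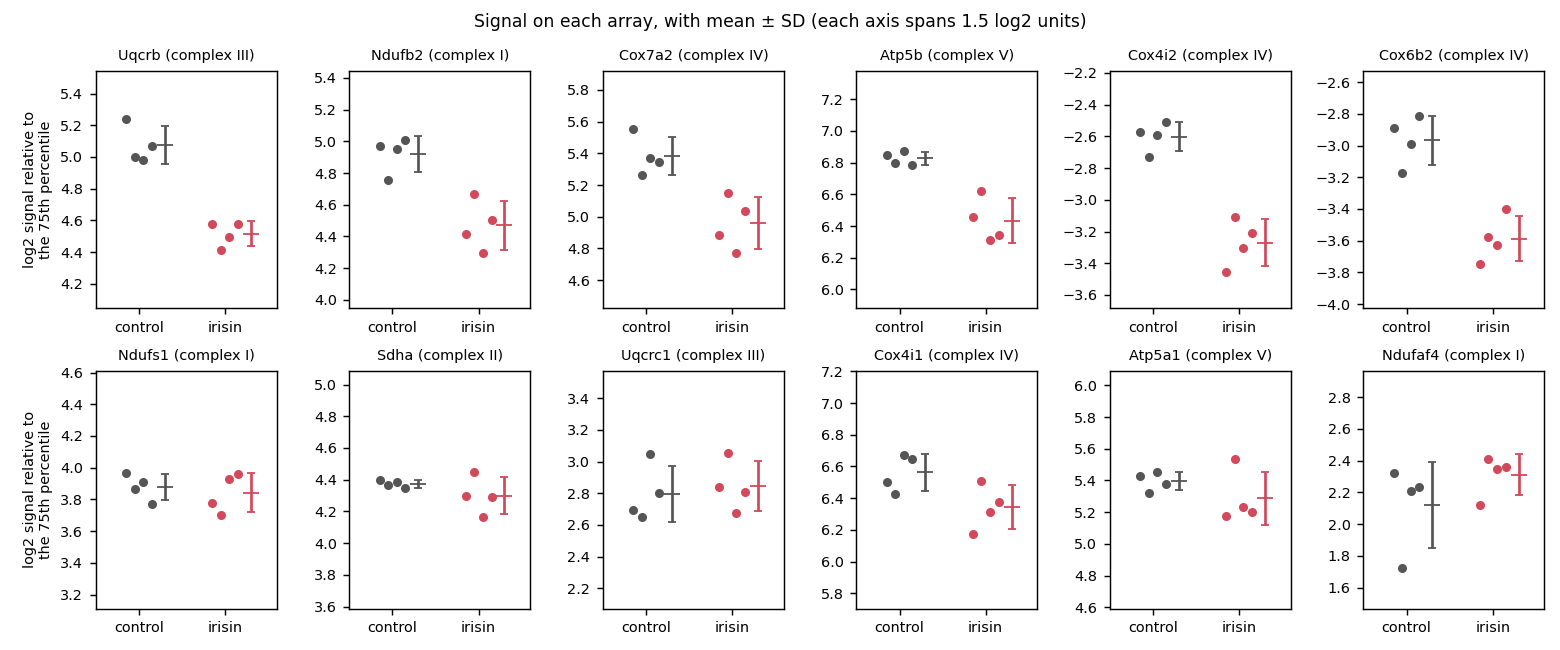
Signal of 12 genes on each of the 8 arrays, on the log2 scale after dividing by the array's 75th percentile, with the mean ± SD of each group. Each axis spans the same 1.5 log2 units. In the top row all irisin arrays lie below all control arrays, and in the bottom row the groups overlap.

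Complex V changes ran from -0.43 to -0.11 over its 17 genes. Atp5b, the catalytic beta subunit of F1, measured 6.85, 6.80, 6.87 and 6.79 in control and 6.46, 6.62, 6.31 and 6.34 with irisin. The groups did not overlap, and the difference was -0.39 ± 0.09 (SE, adjusted p = 0.00763), which quantile normalization reduced to -0.02 (adjusted p = 0.862). Atp5a1, the alpha subunit that alternates with it in F1, was at -0.11 (95% interval -0.32 to 0.11, adjusted p = 0.488), and its irisin arrays overlapped the control arrays. Atp5c1, the rotating gamma subunit, was at -0.25 (adjusted p = 0.0487) and -0.37 (adjusted p = 0.0127) by its 2 probes. Atp5o, the stalk subunit, was at -0.30 (adjusted p = 0.107).

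The c ring of Fo is encoded by 3 genes whose mature proteins are identical. Atp5g1 was at -0.35 (adjusted p = 0.0111), Atp5g3 at -0.43 (adjusted p = 0.0075) and Atp5g2 at -0.11 (adjusted p = 0.486), with a second Atp5g2 probe at -0.26 (adjusted p = 0.0702). With quantile normalization these 2 Atp5g2 probes were above 0, at 0.26 (adjusted p = 0.0294) and 0.06 (adjusted p = 0.511). Atp5l, the g subunit, had 5 probes, all below 0, from -0.46 to -0.19. Of these, 2 were under the adjusted p threshold, but not the one that stood for the gene (-0.28, adjusted p = 0.0637).

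Over all complexes, 25 genes had more than 1 tested probe. In 20 of them all probes were below 0, in 4 the signs were mixed, and in Ndufaf4 both probes were above 0. The probes of a gene differed by 0.13 at the median, and by more than 0.3 in 4 genes (Cox7c, Uqcr10, Ndufaf5 and Cox7a2l). In Uqcr10, 1 probe read 3.51 on control array 2 against 5.13 to 5.18 on the other control arrays, and its change was 0.21 ± 0.33 (SE). In Ndufaf5 the second probe was above background on 2 control arrays and on all irisin arrays, and passed the filter through the irisin group alone.

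**Figure D3:**
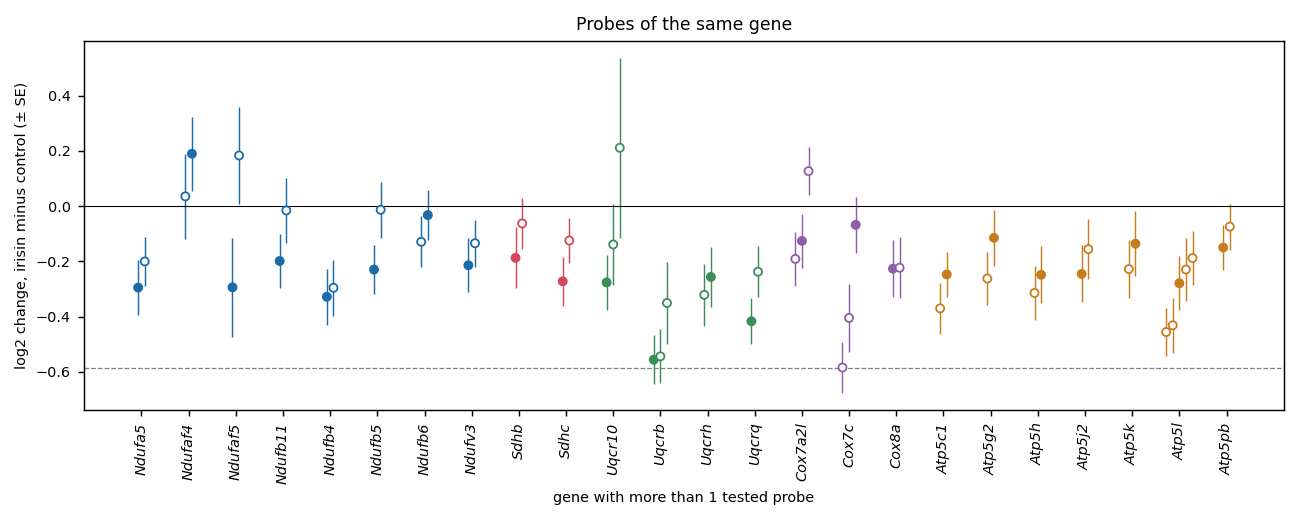
Log2 change with irisin (± SE, 4 arrays a group) of each tested probe of 24 of the 25 genes with more than 1 probe, colored blue, red, green, purple and orange for complexes I to V. Filled circles are the probe that stood for the gene, and the dashed line is a 1.5-fold decrease. The Uqcrb probes lie from -0.56 to -0.35, and the Cox7c probes from -0.58 to -0.07.

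Members were among the brightest genes. In the highest decile of signal lay 64 of 89 members (71.9%), against 9.04% of all tested genes. In that decile the median change was -0.24 over the members and -0.15 over the other genes. Of all its tested genes, members included, 90.0% had a change below 0. In the ninth decile the 10 members had a median of -0.08 and the other genes -0.05. The dimmest genes were lower too, with medians over all tested genes of -0.60, -0.39 and -0.18 in deciles 1, 2 and 3. The part of signal in the decrease of the members was not tested.

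**Figure D4:**
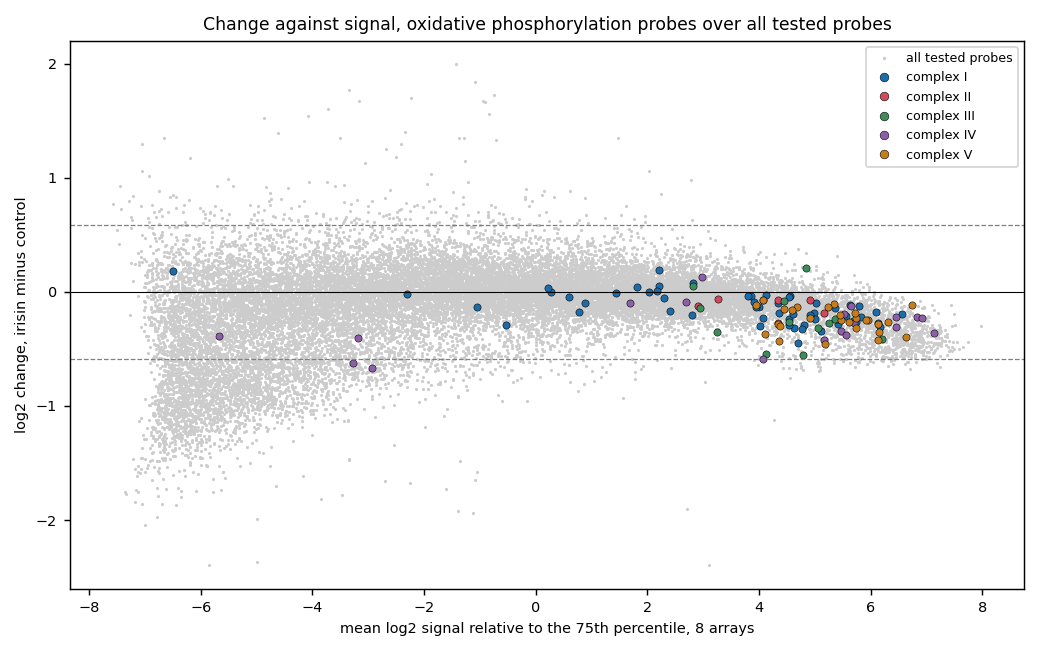
Log2 change with irisin against mean log2 signal over the 8 arrays, for all 24093 tested probes (gray) and the 121 tested member probes colored by complex. Dashed lines mark 1.5-fold. Most members lie at the right end, where the gray cloud also bends below 0, and the 2 called probes lie at the left among dim probes.

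The sign of the member values depended on how the arrays were scaled. All tested probes shifted to a median of 0.49 when scaled to the spike-ins and 0.66 when unscaled, and the members then stood at medians of 0.36 and 0.53, a difference of -0.14 from the median of all tested genes in both. Like the 75th percentile, these settings move all probes of an array by the same amount, so this difference is the same by construction. Quantile normalization put the members at -0.0083, cyclic loess put them at -0.053, and normexp at -0.35. The count of members lower at the adjusted p alone was 22 with the 75th percentile, 5 (5.62%) with quantile normalization and 6 (6.74%) with cyclic loess, where 9.87% and 9.96% of all tested genes were lower. It was 0 with limma after normexp, as it was over all tested genes. It was also 0 after spike-in scaling or none, where 9 (10.1%) and 78 (87.6%) members were higher at the adjusted p alone, against 40.4% and 82.8% of all tested genes. With quantile normalization 1 member (1.12%), Atp5g2, was higher at the adjusted p alone, against 6.51% of all tested genes. The genes under the threshold and lower under the 75th percentile, quantile and cyclic loess settings alike were Uqcrb, Ndufb2, Cox7a2, Cox4i2 and Cox6b2. With the 75th percentile, leaving out irisin replicate 2 gave 44 lower members (49.4%), against 22.0% of all tested genes. Leaving out any other array gave 12 to 16 (13.5% to 18.0%), against 15.2% to 16.7%.

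**Figure D5:**
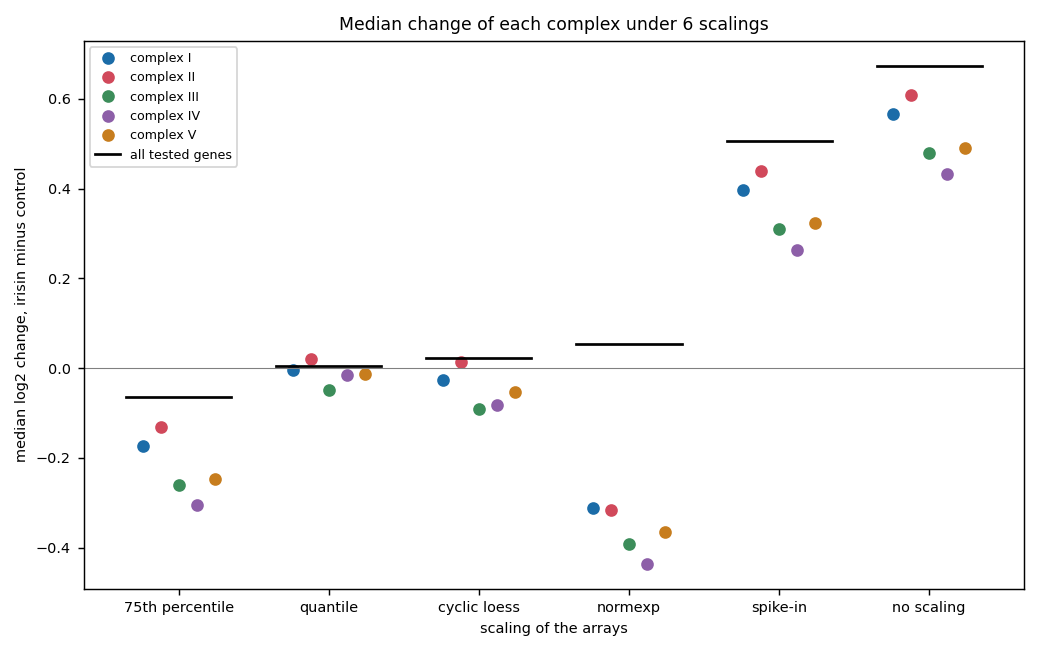
Median log2 change with irisin of the tested genes of each complex (circles) and of all tested genes (black bars) under 6 scalings of the arrays. The complexes lie below the bar in the 75th percentile, normexp, spike-in and unscaled settings, and closer to it with quantile normalization and cyclic loess. The 75th percentile, spike-in and unscaled settings differ by a constant for each array, so the gaps between circles and bar are the same by construction.

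Other genes of the pathway were taken from lists by role. Beside the counts in this paragraph and the next, 17.9% of all tested genes were lower at the adjusted p alone and 2.65% higher. Called lower were 10.2%. Of 18 tested complex IV assembly factors, Cox14 (-0.35, adjusted p = 0.0462) and Coa3 (-0.31, adjusted p = 0.0337) were lower at the adjusted p alone and none was higher, with a list median of -0.04. Of 8 complex I assembly factors not named Ndufaf, Timmdc1 was called lower (-0.77 ± 0.11 SE, adjusted p = 0.000718) and the others were not under the threshold. None of the 4 complex II, 5 complex III and 4 complex V factors passed. In coenzyme Q synthesis, 1 of 11 genes passed, Coq8a, lower by the adjusted p alone (-0.34).

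Of 16 TCA cycle and pyruvate dehydrogenase genes, the list median was 0.03, with Pdhb lower (-0.41, adjusted p = 0.0214) and Suclg2, the GTP-forming succinyl-CoA ligase subunit, higher (0.38, adjusted p = 0.0034), both by the adjusted p alone. Of 7 carriers, the phosphate carrier Slc25a3 (-0.47, adjusted p = 0.00635) and the channel Vdac2 (-0.28, adjusted p = 0.0429) were lower by the adjusted p alone, with a list median of -0.21. The electron carrier Cycs was at -0.18 (adjusted p = 0.160).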

How the data were processed

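RNA of 8 AML12 samples was labeled with Cy3 by the authors, hybridized to 1-color Agilent arrays and read with Feature Extraction 12.0.3.1. The deposited values are linear signal intensities after its background subtraction, not normalized between arrays, and other deposited columns are flags for spots. A deposited value table equals the mean processed signal per probe.

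From these, marked spots were left out (at most 0.463% of an array), spots of a probe were averaged, and each array was divided by its 75th percentile before taking log2. No spot was saturated. Accessions were matched to RefSeq symbols of GRCm38.p6 for 72.7% of 39429 probes. Files place probes on another build, so their positions are not used. Tests used limma 3.58.1 in R 4.3.3 with Benjamini-Hochberg adjustment, and were tested on simulated data. Named genes were called genes, the largest increase and decrease of each complex, set anchor subunits and isoform pairs. Ndufs8, Uqcrq, Cox6c, Cox7b, Uqcr10, Atp5l and the probes of Cox7c were added after their values were seen, as were all other genes named singly. Members and lists were chosen with earlier results of these data known. The number of arrays limits the precision. Alternatives were other background corrections, scalings, filters and tests, and each array left out. One member gene counts in the totals but is not reported here by itself or drawn by name.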

Additional observations from a re-analysis of the deposited data

Results flagged for a closer look

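In groups of 4 arrays, 1 array stood far from the other 3 in 4 of the 90 groups checked, where chance gives about 1 in 20. Atp5a1 read 5.54 on irisin array 2 against 5.18 to 5.23 on the other irisin arrays. Atp5g3 read 6.11 on the same array against 5.82 to 5.87. The median of the complex IV genes was 5.48 on control array 2 against 5.66 to 5.67 on the other control arrays. The Uqcr10 probe with the wide error read 3.51 on control array 2 against 5.13 to 5.18.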

How the results depend on the processing

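With the 75th percentile, 2988 probes of all those tested were called (5.76% of them higher), 2 member probes and 2 member genes lower, and the member median stood at -0.14 from that of all tested genes. With normexp correction no probe and no member was called, and this difference was -0.40 (complexes I to V at -0.37, -0.37, -0.45, -0.49 and -0.42). With quantile normalization 1691 probes were called (39.6% higher), 1 of them a member, and 0 member genes lower, and the difference was -0.014 (-0.054 in complex III, -0.022 in complex IV and -0.020 in complex V). With cyclic loess 1625 were called (43.0% higher), 1 a member, and 0 member genes lower, with complex IV at -0.11. With spike-in scaling 7882 were called (95.3% higher), 8 of them member probes, with 4 member genes higher and 0 lower. With no scaling 15082 were called (98.9% higher), 48 of them member probes, with 35 member genes higher and 0 lower. Without the filter on dim probes 12934 were called, 6 of them member probes, and 6 member genes were lower, 4 of which had not been tested before, with the difference at -0.024 (0.063 in complex II and -0.066 in complex III). At the adjusted p alone 5910 probes, 29 member probes and 22 member genes lower passed, and at 2-fold 801, 0 and 0. Leaving out 1 array at a time gave 1 to 5 member probes (5 without control replicate 3, and 1 without control replicate 4 or irisin replicate 1) and 1 to 3 member genes lower, 2791 to 3439 probes called, and a member difference of -0.18 to -0.11. The methods' test (ANOVA per probe, adjusted by Benjamini-Hochberg) called 2705 probes and 2 member genes lower. Of 228 summary values under the alternatives, 183 stayed within 1.5 times the main count or, for a median, within 1 SD between replicate arrays (0.08 to 0.14). Medians relative to all tested genes were bound to stay where only a constant for each array changed, as with spike-in or no scaling. Inside that SD, complex I went from -0.11 to -0.0088 with quantile normalization and to 0.02 without the filter, complex II from -0.07 to 0.02 with quantile normalization, and the members to -0.08 with cyclic loess. The cause of the changes was not tested.

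Samples of equal replicate number did not deviate together (r = 0.11, -0.35, -0.13 and 0.17 for numbers 1 to 4). For unequal numbers r ran from -0.24 to 0.36. These values cannot settle whether equal numbers belong together, and the labels do not say. With the replicate number as a block, 3005 probes and 2 member genes lower were called, and 12 members were lower at the adjusted p alone. With a moderated trend and robust variances that count was 31.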
